A study of Mus musculus with 12 samples.

Results

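The miR-297, miR-466, miR-467 and miR-669 families are mouse miRNAs whose hairpins lie mostly inside the gene Sfmbt2. Members were all rows of the count table named for one of these 4 numbers, with or without a letter and arm, that had at least 1 count over the 12 libraries. The rule found 76 of the 1325 miRNAs with counts. Because 18 of these rows repeat the counts of another member in every library, the 76 rows hold 66 different count profiles, and each profile is counted once below.

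Small RNAs were sequenced from the hippocampus of male C57BL/6 mice at an age of 3 months. Matings of Gld2 heterozygotes gave the 12 littermates, 6 wild type (WT) and 6 with Gld2 knocked out (GLD2KO). The Gld2 protein is a noncanonical poly(A) polymerase, which extends the 3′ end of RNAs, including some miRNAs. Its mRNA was not analysed here, so the genotypes are as labelled, and the comparison is of how many counts each miRNA has.

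A miRNA hairpin is cut into a 5p and a 3p arm, and either arm can be loaded into an Argonaute protein, where the bases of its seed (2 to 8 from the 5′ end) pair with target mRNAs. The Sfmbt2 cluster is a rodent expansion of hairpins rich in short repeats and is best known from the placenta and from embryonic stem cells. Sfmbt2, the host gene, encodes a polycomb protein and is imprinted, with expression from the paternal copy in extraembryonic tissue.

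The repeats can be read in the mature sequences. RefSeq (GRCm38.p6) gave a mature sequence under the names of 8 members, all from hairpins outside Sfmbt2. Mature sequences of the members inside Sfmbt2 were therefore not read here. The 5 with the most counts are shown 5′ to 3′ with the seed in capitals, because they show the 2 kinds of repeat found among the 8.
miR-466q: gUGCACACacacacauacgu
miR-466i-3p: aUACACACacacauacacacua
miR-669n: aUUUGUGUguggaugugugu
miR-466k: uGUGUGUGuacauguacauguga
miR-466j: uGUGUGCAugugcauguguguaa
In miR-466q, 12 of the 19 neighbouring base pairs along the strand read CA or AC, and in miR-466i-3p 15 of 21 do. In miR-669n, 13 of 19 read UG or GU. The corresponding count was 13 of 22 in miR-466k and 14 of 22 in miR-466j. The 5 seeds differ from one another, as do those of the other 3 members with a sequence, so this set holds no pair with a shared seed.

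These 5 hairpins lie at separate places in the genome. In GRCm38, miR-466q is read from chr3:28419988-28420007, miR-669n from chr3:115979905-115979924 and miR-466k from chr3:85467396-85467418. The mature miR-466i-3p lies at chr13:17747552-17747573 and miR-466j at chr10:60960802-60960824, and all 5 are on the plus strand. A run of UGUGUG or GUGUGU was present in 4 of the 8 sequences, and a run of CACACA or ACACAC in the other 4. Of the 1679 mature mouse sequences in the same table, 32 (1.91%) held the first kind of run and 17 (1.01%) the second. The letters were searched on the printed strand only.

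A hairpin of the miR-297 family, Mir297-1, is listed under miR-297a and shows the same repeat in a precursor, with the UGUGUG run in capitals. It lies on the minus strand at chr7:10958437-10958512.
Mir297-1: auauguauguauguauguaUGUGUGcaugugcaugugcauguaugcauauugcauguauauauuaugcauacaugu

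Of the 81 hairpin genes whose symbols carry these family names in the annotation, 71 lay inside Sfmbt2 (chromosome 2, 10370440 to 10595253), all 71 on its strand. A further hairpin in the same stretch (10491336 to 10491425) is listed as Gm25285, with Mir466c-3 as a synonym, and is not among the 71 counted and plotted. They filled 51.617 kb, from the start of Mir466m at 10466663 to the end of Mir669h at 10518279. The span held 0 exons of Sfmbt2, so the whole row of hairpins lies in a single intron. It comprised 29 hairpins of miR-669, 23 of miR-466, 14 of miR-467 and 5 of miR-297. The families alternate along the intron, and several names recur: miR-669a names 12 hairpins, miR-467a 10 and miR-466b 8. The other 10 hairpins were on chromosomes 3, 5, 7, 9, 10, 11 and 13.

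**Figure D1:**
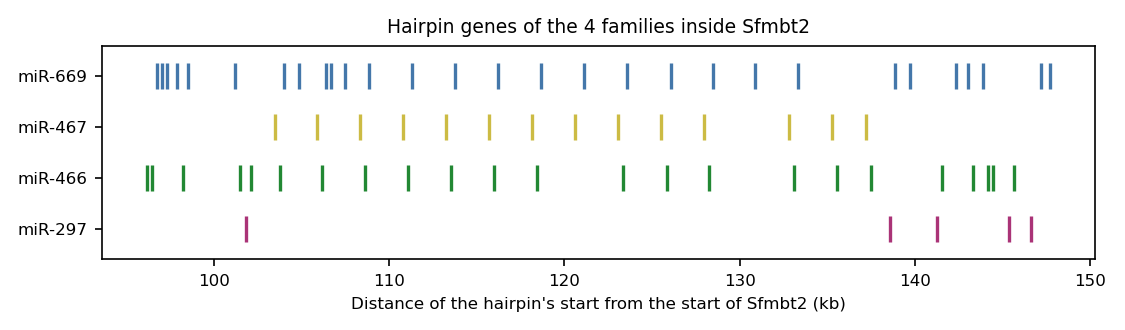
Each line is the start of 1 hairpin gene, placed by its distance in kb from the start of Sfmbt2 and set in 4 rows by family. The 71 hairpins sit in one stretch of 51.617 kb, with miR-669, miR-466 and miR-467 repeating in turn through its middle and 4 of the 5 miR-297 hairpins near its end.

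The repeated hairpins limit what a single name measures. Identical counts in all 12 libraries joined miR-297a-3p, miR-297b-3p and miR-297c-3p, with 192 counts. They also joined miR-466b-3p, miR-466c-3p and miR-466p-3p with 724 counts, and miR-467a-5p and miR-467b-5p with 819. Further such sets were miR-669a-3p with miR-669o-3p, miR-669a-5p with miR-669p-5p, miR-467a-3p with miR-467d-3p, miR-466d-5p with miR-466n-5p, and miR-466b-5p with miR-466o-5p. Each set is called below by its first name. In 4 more pairs the counts differed by 10% or less: miR-466a-3p, miR-466b-3p and miR-466e-3p among themselves (3 pairs, 0.275% to 3.03%), and miR-466m-5p against miR-669m-5p (8.16%). Values of these names are therefore not independent of each other, and how shared reads were assigned is not given in the sources used here.

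The families were a small part of the hippocampal miRNAs. Together the 66 profiles had 12064 counts, 0.0360% of all counts, in libraries of 2197915 to 3761106 counts. Within that sum miR-669 took 43.6%, miR-466 31.2%, miR-467 20.1% and miR-297 5.07%. The 5p arms gave 56.6%, the 3p arms 41.0% and names without an arm 2.39%. The near-identical miR-466a-3p, miR-466b-3p and miR-466e-3p, with 704, 724 and 726 counts, each enter these sums in full. Counting them once would lower the miR-466 and 3p shares. Names whose hairpins lie only in Sfmbt2 gave 85.8% of the counts, and names with hairpins only elsewhere 4.69%. Names with hairpins in both places gave 3.49%, with the shared miR-297a-3p count placed here by its first name. The remaining 6.03%, under miR-466a, was not matched to a hairpin, because matching used symbols with a letter. A hairpin listed as Mir466, without a letter, lies inside Sfmbt2 at 10507918 to 10507990 and was assigned to no name. If miR-466a comes from it, the share from Sfmbt2 is higher than 85.8%.

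Counts were concentrated in a few names. The 5 most abundant profiles held 44.3% of the family counts, while 13 profiles had fewer than 12 counts in all. These 5 include both miR-466e-3p and miR-466b-3p, whose counts differ by a sum of 2. All 12 libraries had at least 1 count for 24 of the 66. The most abundant member, miR-669c-5p with 1654 counts, ranked 278 of 1325. The low-count filter of the genotype test kept 21 of the 66 profiles, 13 of them 5p and 8 of them 3p, and these held 87.0% of the family counts. Their median level was 10.9 CPM (counts scaled to a common library size, corrected for library composition), against 60.4 over all 521 miRNAs tested, and 0 of the 21 exceeded that median. The highest of the 45 profiles left out was miR-466h-3p at a mean of 4.17 CPM. In a single library, 3 counts amount to between 0.734 CPM (WT replicate 6) and 1.77 CPM (WT replicate 3), so a member without counts may still lie below that level. Such floors cover counting error only.

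The families' share of all counts was 0.0334 ± 0.0130% in WT (SD, n = 6) and 0.0390 ± 0.00824% in GLD2KO (SD, n = 6). It ran from 0.0174% in WT replicate 3 to 0.0520% in WT replicate 6, and from 0.0274% to 0.0521% in GLD2KO. The ranges overlapped over most of their length. Between 40 of the 66 profiles (GLD2KO replicate 1) and 56 (WT replicate 5) were detected in a library.

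No miRNA, in these families or outside them, passed an adjusted p of 0.05 between the genotypes. The edgeR quasi-likelihood test called 0 of 521 (0.0%), with a lowest Benjamini-Hochberg adjusted p of 0.815. At an unadjusted p under 0.05 it marked 25, of which 17 (3.26%) were higher in GLD2KO. Among the 21 members it marked 2, both higher in GLD2KO and both 5p arms of miR-297. DESeq2, fitted to all 1325 miRNAs with counts, called 0 and marked 45 at that unadjusted level. With limma-voom 0 of 521 were called and 23 marked. The fitted log2 fold change was above 0 in 14 of the 21 members, median 0.26. Over all tested miRNAs it was above 0 in 306 of 521 (58.7%), median 0.12, so the direction of the members was close to the background. In 0 members were the 6 GLD2KO libraries all above the 6 WT libraries, compared with 2 of 521 (0.384%) overall.

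The fit could not resolve small changes in these rare miRNAs. The 95% confidence interval of a member reached a median of 0.91 on the log2 scale to either side. For 4 of 21 members both of its ends were less than 2-fold from no change, or for 2 of 19 with near-identical rows taken once. The coefficient of variation over WT libraries had a median of 40.5% in the members and 46.8% over all tested miRNAs, and over GLD2KO libraries 56.4% and 52.8%.

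**Figure D2:**
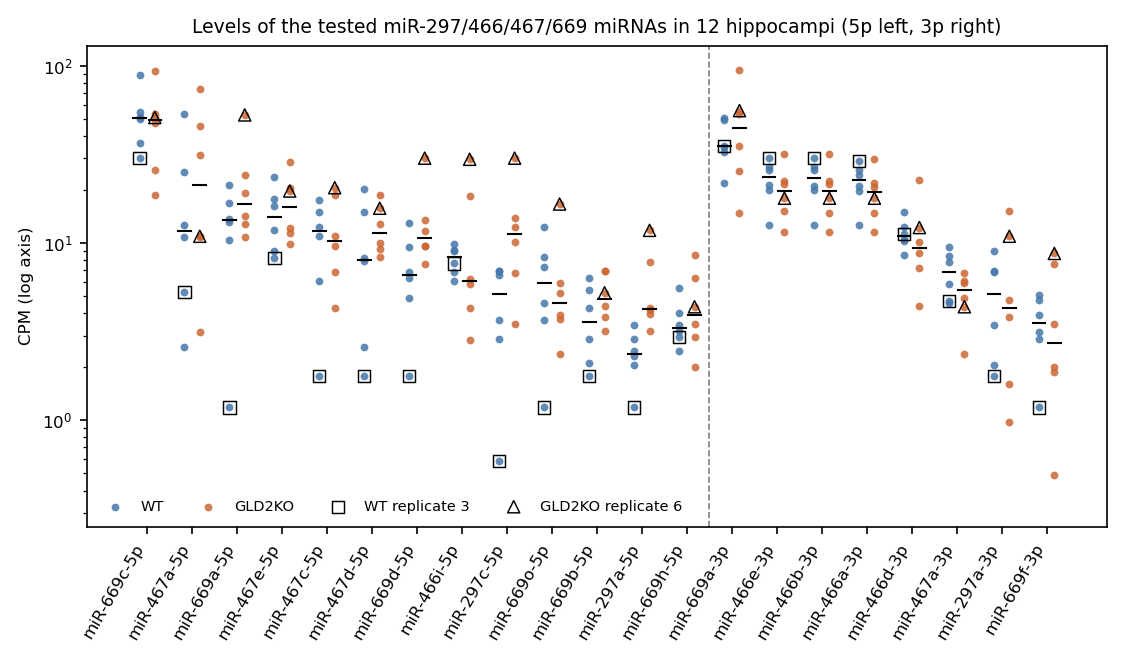
CPM (log axis) of the 21 tested members in 12 libraries, 5p arms on the left and 3p arms on the right. Circles are libraries, bars are group medians, squares mark WT replicate 3 and triangles GLD2KO replicate 6. WT replicate 3 is the lowest library in 9 of the 13 5p members, and GLD2KO replicate 6 is the highest in 7 of them.

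The 5p arms of miR-297 had the largest fitted differences. miR-297a-5p, from a name with hairpins in Sfmbt2 and the chromosome 7 hairpin shown above, lay at 1.18, 2.37 and 3.43 CPM (lowest, median, highest) in WT and at 3.2, 4.22 and 11.8 CPM in GLD2KO. The groups overlapped by a narrow margin, since WT replicate 5 exceeded GLD2KO replicate 3. Its log2 fold change was 1.25 (SE 0.43, 95% interval 0.34 to 2.16), with an unadjusted p of 0.00993 and an edgeR adjusted p of 0.815. miR-297c-5p, whose hairpin lies in the cluster at chromosome 2, 10509016 to 10509113, lay at 0.589, 5.13 and 6.96 CPM in WT and at 3.47, 11.2 and 30.1 CPM in GLD2KO. Its log2 fold change was 1.43 (SE 0.54, interval 0.31 to 2.56), with an unadjusted p of 0.0155 and an edgeR adjusted p of 0.815. Both rest on few reads, from 1 to 69 counts in a library, and neither passed the threshold.

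The 3p arm of the same family had a smaller fitted difference. The shared miR-297a-3p count lay at 1.77, 5.15 and 8.96 CPM in WT and at 0.977, 4.29 and 15.2 CPM in GLD2KO, with the GLD2KO libraries spanning the whole WT range. Its log2 fold change was 0.26 (SE 0.59). Its sign rested on single libraries, since it was -0.21 without GLD2KO replicate 4 and -0.01 without GLD2KO replicate 6. In the full set of libraries all 3 tested miR-297 profiles were above 0, with a median of 1.25.

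In the miR-669 family, the largest of the 4 by counts, 6 of 8 tested profiles had a fold change above 0, median 0.32. miR-669c-5p, next to Mir297c in the intron at chromosome 2, 10509296 to 10509404, lay at 30.0, 50.5 and 89.0 CPM in WT and at 18.6, 49.1 and 93.8 CPM in GLD2KO. The GLD2KO libraries reached past the WT range at both ends, and the log2 fold change was -0.11 (SE 0.43). The shared miR-669a-3p count lay at 21.6, 35.1 and 50.4 CPM in WT and at 14.7, 44.3 and 94.9 CPM in GLD2KO, log2 fold change 0.32 (SE 0.44), or -0.01 without GLD2KO replicate 4. GLD2KO was the more dispersed group, holding both the lowest and the highest library.

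The 5p arm of miR-669a lay at 1.18, 13.4 and 21.2 CPM in WT and at 10.8, 16.7 and 52.7 CPM in GLD2KO, log2 fold change 0.80 (SE 0.52). miR-669d-5p lay at 1.77, 6.60 and 13.0 CPM in WT and at 7.59, 10.7 and 30.1 CPM in GLD2KO, log2 fold change 0.93 (SE 0.47), with an edgeR adjusted p of 0.841. In both, WT replicate 3 was the lowest library and GLD2KO replicate 6 the highest. Without GLD2KO replicate 6 the log2 fold changes were 0.38 and 0.56.

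The miR-467 family had 4 of 5 tested profiles above 0, median 0.23. The shared miR-467a-5p count lay at 2.58, 11.7 and 53.1 CPM in WT and at 3.12, 21.1 and 74.3 CPM in GLD2KO, log2 fold change 0.69 (SE 0.70). Libraries of one genotype differed far more than the group medians did, and the fold change ran from 0.15 (without GLD2KO replicate 3) to 1.37 (without WT replicate 1). Its opposite arm, miR-467a-3p, lay at 4.58, 6.82 and 9.50 CPM in WT and at 2.37, 5.39 and 6.76 CPM in GLD2KO, log2 fold change -0.42 (SE 0.38), the lowest fold change of the 21. miR-467e-5p lay at 8.24, 14.0 and 23.5 CPM in WT and at 9.86, 15.9 and 28.6 CPM in GLD2KO, with a log2 fold change of 0.23 (SE 0.40). The genotypes overlapped in all 3.

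The miR-466 family had 1 of 5 tested profiles above 0, median -0.18, and its 3 abundant 3p names carry nearly the same counts. miR-466e-3p lay at 12.7, 23.5 and 30.0 CPM in WT and at 11.5, 19.7 and 31.8 CPM in GLD2KO, log2 fold change -0.19 (SE 0.37). The values for miR-466b-3p (-0.19) and miR-466a-3p (-0.18) add no separate evidence. The tested profile above 0 was miR-466i-5p, from the hairpin on chromosome 13 (17747473 to 17747593) outside the cluster, at 6.12, 8.31 and 9.81 CPM in WT and 2.85, 6.06 and 29.6 CPM in GLD2KO. Its log2 fold change was 0.46 (SE 0.51), and it rested on GLD2KO replicate 6, without which it was -0.10. Its opposite arm miR-466i-3p, printed above, had 62 counts and was not tested. Of the shared sets, miR-466d-5p with 141 counts and miR-466b-5p with 21 were also below the filter.

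**Figure D3:**
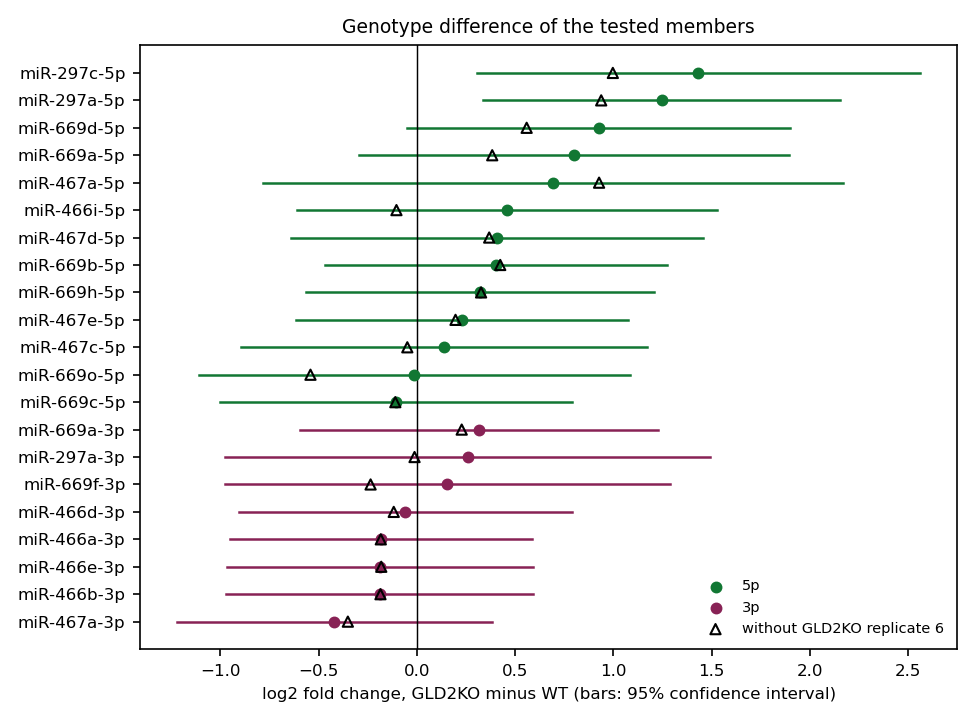
Log2 fold change (GLD2KO minus WT) of the 21 tested members from the edgeR fit, with 95% confidence intervals as bars, 5p arms above and 3p arms below. Open triangles are the values without GLD2KO replicate 6, and 11 of 13 filled 5p points lie to the right of 0 against 3 of 8 3p points. The 3p points of miR-466a-3p, miR-466b-3p and miR-466e-3p rest on nearly the same counts.

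Most fold changes above 0 belonged to 5p arms, a difference between the arms that was not itself tested. The fitted fold change was above 0 in 11 of 13 5p members, median 0.41, against 136 of 240 5p miRNAs overall (56.7%, median 0.12). It was above 0 in 3 of 8 3p members, median -0.12, against 156 of 258 overall (60.5%, median 0.12). The 3p members include miR-466a-3p, miR-466b-3p and miR-466e-3p, all below 0, whose counts are nearly the same. With near-identical rows kept once before the fit, 12 of 13 5p members (median 0.43) and 3 of 6 3p members (median 0.03) were above 0. These are counts of estimates, none of which passed the threshold. Without GLD2KO replicate 6 the values were 9 of 13 5p members, median 0.37, and 1 of 9 3p members. Over both arms 10 of 22 members were then above 0, median -0.03, compared with 14 of 21 in all libraries. Without both WT replicate 3 and GLD2KO replicate 6, a choice made after seeing the data, it was 9 of 13 5p members, with a median of 0.13, and 10 of 23 members in all.

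The 2 miR-297 5p profiles moved with the same libraries. Without GLD2KO replicate 6, the log2 fold change of miR-297a-5p was 0.94 (unadjusted p 0.0312, edgeR adjusted p 0.750) and that of miR-297c-5p 1.0 (unadjusted p 0.0578 in the edgeR fit). With WT replicate 3 left out as well, they were 0.80 and 0.77, with unadjusted p of 0.0563 and 0.103 in the edgeR fit.

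Single libraries stood at the ends of many members' ranges. GLD2KO replicate 6 was the highest of the 12 in 8 of 21 members, 7 of them 5p, and in 8.83% of all tested miRNAs. WT replicate 3 was the lowest in 9 of the 13 5p members, in 0 of the 8 3p members and in 22.8% of all tested miRNAs. GLD2KO replicate 4 was the highest in 6 of the 8 3p members and in 18.2% of all tested miRNAs. Without GLD2KO replicate 4, 0 of 9 3p members were above 0, median -0.35. The counts of 3p members given here take the near-identical miR-466a-3p, miR-466b-3p and miR-466e-3p as separate members. On a summed list of 9 choroid plexus and ciliated epithelium miRNAs, all 9 detected in every library, GLD2KO replicate 6 reached 23920 CPM, the other GLD2KO libraries at most 8894 and WT libraries 1851 to 5585. On lists of 3 oligodendrocyte and 4 vascular miRNAs, all detected in every library, WT replicate 3 was highest, at 40392 and 16040 CPM. The other ends of these lists were 8806 and 4800 CPM in WT, while GLD2KO ran from 9305 to 30570 and from 6639 to 10206 CPM. Of neuron miRNAs, all 3 were found in every library, summing to 94182 to 336835 CPM in WT and 132488 to 237149 CPM in GLD2KO. The 2 red blood cell miRNAs summed to 652 to 22933 CPM in WT and 1147 to 24213 CPM in GLD2KO. For microglia and leukocytes 1 of the 3 listed names, miR-223-3p, matched the table. It lay at 6.94 to 351 CPM in WT, highest in replicate 3, and at 20.04 to 87.4 CPM in GLD2KO. The listed miR-142a-3p and miR-142a-5p stand in the table under another name and were not summed, so 1 miRNA represents these cells. The part of these cell types in the members' values was not tested, and in tissue RNA fewer cells of a type and less RNA per cell cannot be told apart.

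The balance of the arms varied between libraries of the same genotype. The summed 5p counts of the families divided by the summed 3p counts gave 2.36, 1.55, 0.526, 1.06, 0.983 and 1.15 in WT replicates 1 to 6. In GLD2KO replicates 1 to 6 the ratio was 3.44, 1.2, 2.40, 0.715, 1.26 and 2.17. WT replicate 3, with 133 5p and 253 3p counts, and GLD2KO replicate 4 had the lowest ratios. The 3p sums hold the near-identical miR-466a-3p, miR-466b-3p and miR-466e-3p rows separately, which lowers the ratios. They gave 49, 51 and 51 of the 253 3p counts of WT replicate 3, and 30, 30 and 31 counts in GLD2KO replicate 1. In WT replicate 3 the median log2 ratio over all tested hairpins was also the lowest of the 12, at -0.44.

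**Figure D4:**
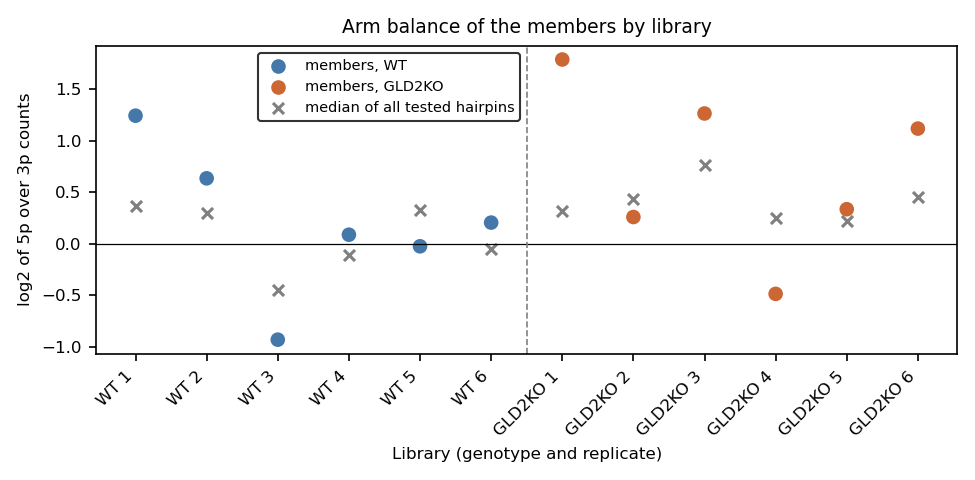
Log2 of summed 5p over summed 3p counts of the members (circles, by library and genotype) and the median log2 5p to 3p ratio of all tested hairpins (grey crosses). The members' ratio ranges from 0.526 in WT replicate 3 to 3.44 in GLD2KO replicate 1, and both genotypes have libraries on either side of 0. The 3p sums hold the near-identical miR-466a-3p, miR-466b-3p and miR-466e-3p rows separately, which lowers the ratios.

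For each hairpin name, the log2 ratio of the 5p to the 3p arm (0.5 added to each count) was taken. A name can cover several hairpins, as miR-669a does with 12. The limma test compared the ratio between the genotypes over 167 names whose arms each averaged 10 or more counts. It called 0 (0.0%), with a lowest Benjamini-Hochberg adjusted p of 0.922 and 2 at an unadjusted p under 0.05. The difference was above 0, a higher 5p share in GLD2KO, in 84 of 167 (50.3%), median 0.06. Of the 7 member hairpin names 6 were above 0, median 1.08, and 0 had an unadjusted p under 0.05.

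The 2 largest differences were those of miR-297c, with 278 5p and 192 3p counts, and miR-467d, with 395 and 211. The log2 ratio of miR-297c averaged -0.19 ± 1.01 over the 6 WT and 1.26 ± 1.46 over the 6 GLD2KO libraries (± SD), which differ by 1.45 (95% interval -0.02 to 2.92). That of miR-467d averaged 0.05 ± 1.10 in WT against 1.27 ± 0.64 in GLD2KO, 1.22 higher (interval -0.03 to 2.47). The others were miR-297a at 1.16, miR-467a at 1.08, miR-669a at 0.81, miR-466d at 0.70 and miR-669o at -0.11, each with an interval that includes 0. The 7 are not separate measurements, because the 3p counts of miR-297a and miR-297c are the same counts, as are those of miR-467a and miR-467d and those of miR-669a and miR-669o. The 5p count of miR-669a is shared with another name, miR-669p, so its arms need not come from the same hairpins.

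Other miRNAs of like sequence or tissue gave few values. Of the GU-rich or repeat-derived miRNAs listed by name, 6 had a row in the count table, while miR-1186a and miR-1186b had none. All 6 had counts and 1 was tested, miR-574-5p, a GU-rich miRNA outside the families. It had 662 counts and a log2 fold change of 0.76 (SE 0.41), with an edgeR adjusted p of 0.841. Of 26 names from the miR-290 to miR-295 cluster and the miR-302 and miR-367 cluster, which mark embryonic stem cells and early embryos, 7 had counts, 10 in all, and 0 were tested. The only miRNA outside the families that shares a seed with the 8 printed or searched sequences was miR-668-5p, with 26 counts, also untested.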

How the data were processed

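Small RNAs of 6 WT and 6 GLD2KO hippocampi were measured. Per the labels' protocols, RNA was extracted with TRIzol, size-selected on a gel and sequenced as barcoded cDNA libraries. Per the submitters' processing notes, Trimmomatic 0.32 and cutadapt 1.3 were used, with build GRCm38. The aligner, annotation and assignment of shared reads were not given in the sources used here. The values the authors deposited are raw counts of each mature miRNA in each library, and no molecular identifiers are named. Groups came from the sample titles, and the labels name separate mice.

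The genotypes were compared with edgeR 4.0.16 in R 4.3.3 (TMM, filterByExpr, glmQLFTest) over the whole table, 521 miRNAs, with Benjamini-Hochberg adjustment at 0.05. CPM uses TMM-scaled library sizes, so a change shared by all miRNAs cannot be seen. Rows with identical counts were kept once for member statistics. Arm ratios were tested with limma 3.58.1. Alternatives used DESeq2 1.42.0, limma-voom, other filters and scaling, a replicate block and left-out libraries. The tests were checked on simulated counts. Hairpin positions are from RefSeq (GRCm38.p6) and Sfmbt2 exons from GENCODE of the same build. Members named were the 8 most abundant, the 5 lowest by p, the top 5p and 3p row of each family, and rows with identical counts. Others were named after their values were seen. The members and lists were chosen with earlier results of these data known. A stray row without a miRNA name held 0 counts. Rows named miR-669a-3-3p and miR-669d-2-3p, with 18 and 5 counts, carry a copy number that the rule does not cover and were left out.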

Additional observations from a re-analysis of the deposited data

Results flagged for a closer look

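Dixon's gap rule was applied to 64 groups of 6 libraries and marked 3 libraries as far from the other 5. In each genotype these were the CPM of 16 named members, 8 summed levels (all members, families, arms and names with hairpins elsewhere) and 8 arm ratios (7 hairpins and the sum). Chance marks about 1 in 20 groups, or 3.2 of 64. In GLD2KO replicate 6, miR-669a-5p stood at 52.7 CPM, with the other GLD2KO libraries at 10.8 to 24.2 CPM. In the same library miR-669d-5p stood at 30.1 CPM, with the others at 7.59 to 13.5 CPM. In WT replicate 3 the log2 ratio of miR-669a 5p to 3p counts was -4.60, with the other WT libraries at -1.90 to -0.37. That value rests on 2 counts of the 5p arm against 60 of the 3p arm.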

How the results depend on the processing

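Of 396 alternative values of named members and arm ratios, 14 changed sign and 0 passed the threshold. The changes of sign in which the value moved by more than its standard error were those of miR-466i-5p, whose fold change ran from -0.10 (without GLD2KO replicate 6) to 0.66 (without GLD2KO replicate 4) and was -0.13 without that library and WT replicate 3. The cause was not tested. Without the low-count filter edgeR called 7 of 1325 miRNAs, 0 of them members. The number of members with a fold change above 0 was 38 of 66 without the filter and 38 of 66 in DESeq2, where every member is fitted, and 11 of 21 in limma-voom, where miR-297a-3p was at -0.09. Leaving out 1 library also changed how many members were tested. The share above 0 was lowest without GLD2KO replicate 6, at 10 of 22 (45.5%), against 57.0% of all tested miRNAs. It was highest without GLD2KO replicate 3, at 17 of 21 (81.0%), against 58.8% of all tested miRNAs. With identical rows all kept, the families' share was 0.0472% in WT and 0.0555% in GLD2KO. With near-identical rows kept once, the share was 0.0287% in WT and 0.0348% in GLD2KO, and 15 of 19 members were above 0, median 0.28. A replicate block called 0 of 521, with 17 at an unadjusted p under 0.05, and put 13 of 21 members above 0, median 0.13. Libraries with the same number did not deviate together (correlations -0.254 to 0.254, with 1 of 6 numbers matching best with its own), so the numbers were not taken as pairs. Low counts limit these results: 45 of 66 profiles were below the filter, and intervals were wide.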
